A study of Arabidopsis thaliana with 6 samples.

Results

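The phi class is one of the plant-specific families of glutathione S-transferases. Its 10 members measured here were chosen by locus tag, as GSTF2, GSTF3, GSTF6 to GSTF12 and GSTF14 of Arabidopsis thaliana, out of 26552 loci with usable rows. The remaining phi class loci, GSTF4, GSTF5 and GSTF13, were not members and are given beside them. RNA came from whole seedlings of the accession Col-0 that grew in liquid culture on a shaker in long days. The DMMTA group (3 libraries) received 15 µM dimethylmonothioarsenate, a methylated and thiolated arsenic compound, for 6 h at an age of 6 days. The control group (3 libraries) of the same age received none. The labels call the libraries biological replicates and do not say how many plants or dishes each held. The question the comparison answers is how each phi class transcript differs after DMMTA.

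Glutathione S-transferases join the thiol of glutathione to electrophilic compounds or use it to reduce organic hydroperoxides, and some bind small molecules without converting them. In plants the phi and tau classes are the large ones and are known for detoxifying herbicides. Phi class proteins carry an active-site serine that activates glutathione, and several of their genes are classic reporters of defence and oxidative stress. The glutathione conjugates that form are moved into the vacuole by transporters of the ABCC family and broken down there.

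Levels are given as TPM, which is the deposited RPKM added up over all coding sequences of a locus and rescaled to a total of 1000000 per library, so they are per length and can be compared between genes. Log2 fold changes and their standard errors (SE) use log2(TPM + 0.5), a scale that makes the change of low genes look smaller, and folds are ratios of mean TPM. The p-values of limma were adjusted by Benjamini-Hochberg across the 18814 loci tested, and a gene is said to have risen or fallen where that value is under 0.05. The tables hold no counts. Judged by the steps in which low values rise, depth was about 66100000 to 134400000 reads per library, and the replicate 3 library of each group was the shallowest. The lowest member, GSTF3, rested on about 36.1 to 329 reads per library and GSTF8 on about 24600 to 133800. These reads are not independent molecules. Transcripts of markers of both organs were present. The 7 shoot markers summed to 16923 to 22228 TPM per library. The 8 root hair markers summed to 38.5 to 189 TPM and the 7 markers of root inner tissues to 44.4 to 139.6 TPM. None of these root markers was at 0 in all libraries, which a trace in 1 library would be enough for. GSTF6 and GSTF8 each have 2 rows of identical sequence and RPKM, which were summed. Of 44 low values of such rows in the tables, 12 lay within 0.15 of a step of 0.5 of a read and 27 within 0.15 of a whole read, so reads were divided between identical rows in some cases at least. If each row held all reads instead, the levels of GSTF6 and GSTF8 printed here would be too high by a factor of 2 in every library, and their fold changes would stay. GSTF9 has 2 rows of different lengths, and the same holds for the bases they share. The order of the members by level, the sum over the class and the shares rest on this summing. So do the ratios of GSTF6 to GSTF7 and of GSTF9 to GSTF10, and the read numbers of GSTF8.

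All 10 members passed the expression filter of at least 1 TPM in at least 3 libraries. GSTF3 was near 1 TPM in control and met the filter through its DMMTA libraries. Of the 10, 5 rose (GSTF3, GSTF6, GSTF7, GSTF8 and GSTF10) and 2 fell (GSTF11 and GSTF14), which makes 7 of 10 that passed the test against 27.9% of all tested loci. By direction, 17.4% of all tested loci rose and 10.5% fell. GSTF2, GSTF9 and GSTF12 did not pass the test. The groups did not overlap in 8 members, against 46.5% of all tested loci. DMMTA was the higher group in 6 of these, against 27.8% of all tested loci, and the lower group in 2, against 18.6%. The median log2 fold change of the members was 0.45, beside 0.04 over all tested loci.

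The sequences upstream of members that rose are shown here because these genes moved in the same direction and because bZIP factors of the TGA group, which bind TGACG, and WRKY factors, which bind TTGAC, are known regulators of stress-induced glutathione S-transferase genes. Each window is the 250 bases before the annotated gene start in TAIR10.1 (RefSeq), written 5′ to 3′ on the strand of the gene. The files name no build, but 26359 of their 26360 nuclear loci have the same number of coding sequences as in that annotation. TGACG, searched on both strands, was in the window of 18.6% of 27443 nuclear protein-coding genes and of 3 of the 9 members searched, GSTF8, GSTF10 and GSTF3, and is in capitals in the first 3 sequences. It began 193 bases before the gene start in GSTF8 and 15 bases before it in GSTF10, and lay in reverse complement, from 244 bases before the start, in GSTF3. TTGAC, also searched on both strands, was in 44.9% of all windows and in 5 of the 9 members. It was there 3 times in GSTF7, where it is in capitals in the last sequence. GSTF14, which fell, held it 2 times, and GSTF12, which did not pass the test, held it once, as did GSTF3 and GSTF10, where it is not in capitals. The letters TTGACG would count for both motifs and occurred in none of the 9 windows. CACGTG was in 6.5% and GCCGCC in 1.9% of all windows, and each was in 0 of the 9. These matches describe letters in a window and were not tested for binding.
GSTF8, chr2:19556076-19556325, plus strand: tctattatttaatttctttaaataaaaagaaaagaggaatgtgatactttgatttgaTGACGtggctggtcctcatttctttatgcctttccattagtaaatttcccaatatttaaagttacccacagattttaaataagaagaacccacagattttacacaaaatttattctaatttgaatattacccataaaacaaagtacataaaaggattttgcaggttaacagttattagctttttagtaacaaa
GSTF10, chr2:13141040-13141289, plus strand: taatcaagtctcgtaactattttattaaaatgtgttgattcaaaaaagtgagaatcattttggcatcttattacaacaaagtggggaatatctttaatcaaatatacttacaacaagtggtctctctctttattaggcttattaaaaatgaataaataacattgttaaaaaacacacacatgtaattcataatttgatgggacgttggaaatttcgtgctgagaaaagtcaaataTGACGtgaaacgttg
GSTF3, chr2:852322-852571, minus strand: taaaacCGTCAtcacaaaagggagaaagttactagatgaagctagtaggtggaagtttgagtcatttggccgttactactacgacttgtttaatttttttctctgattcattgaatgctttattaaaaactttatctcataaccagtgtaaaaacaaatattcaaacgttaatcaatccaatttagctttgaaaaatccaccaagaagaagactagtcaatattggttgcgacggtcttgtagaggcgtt
GSTF7, chr1:659981-660230, minus strand: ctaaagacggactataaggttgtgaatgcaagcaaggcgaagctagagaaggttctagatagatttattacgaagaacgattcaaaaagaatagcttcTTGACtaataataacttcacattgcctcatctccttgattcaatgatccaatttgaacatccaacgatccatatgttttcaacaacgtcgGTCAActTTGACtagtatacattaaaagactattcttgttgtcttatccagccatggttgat

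GSTF8 (AT2G47730), whose promoter is widely used as a marker of early stress responses, had the largest rise of the class on the log2(TPM + 0.5) scale. With a pseudocount of 0.1 GSTF3 stood above it (log2 fold change 2.08). It was at 391, 386 and 339.9 TPM in control replicates 1 to 3 and at 1533, 1283 and 1519 TPM in DMMTA replicates 1 to 3. Every DMMTA library was above every control library, by more than 3 times. The mean went from 372 ± 28.0 to 1445 ± 140 TPM (SD, n = 3), a 3.88-fold rise (log2 fold change 1.95 ± 0.11 SE, adjusted p = 1.18e-05 by limma). The control libraries of GSTF8 lay close together, with a coefficient of variation (SD over mean) of 7.53%.

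**Figure D1:**
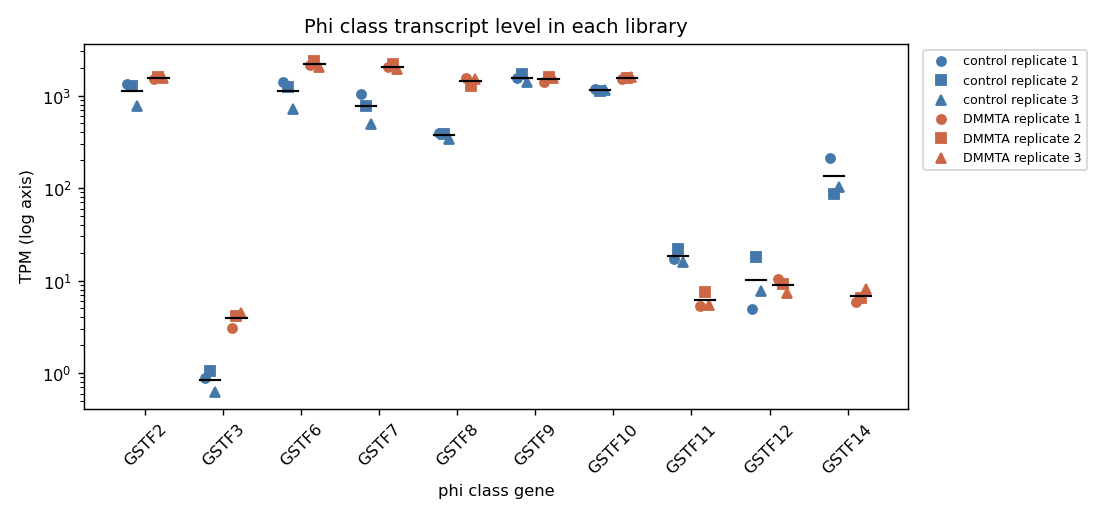
TPM of each phi class gene in each library on a log axis, control in blue and DMMTA in orange, with the symbol giving the replicate number and the black line the group mean. GSTF8 and GSTF3 have the widest gaps upwards and GSTF14 the widest downwards, from 134 to 6.85 TPM.

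GSTF6 and GSTF7 are neighbours on chromosome 1 and close relatives, and both are known as genes induced by pathogens and salicylic acid. GSTF6 (AT1G02930), which has been assigned a part in camalexin synthesis by joining glutathione to indole-3-acetonitrile, was at 1393, 1233 and 708 TPM in control and at 2160.1, 2387 and 2046 TPM in DMMTA. It rose 1.98-fold (log2 fold change 1.04 ± 0.23 SE, adjusted p = 0.0105 by limma), and the call was lost with no filter on low values (adjusted p = 0.0789). GSTF7 (AT1G02920) was at 1044, 770.2 and 488 TPM in control and at 2023, 2200.1 and 1926 TPM in DMMTA. It rose 2.67-fold (log2 fold change 1.48 ± 0.24 SE, adjusted p = 0.00224 by limma). In both genes the groups did not overlap, and control replicate 3 was the lowest library.

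The next loci of the tandem array did not pass the test. GSTF5 (AT1G02940) and GSTF4 (AT1G02950) were at 0.864 to 2.36 TPM and 9.94 to 12.2 TPM in control. They were at 0.741 to 1.40 TPM and 8.32 to 10.1 TPM in DMMTA, and their groups overlapped. Their adjusted p-values were 0.431 and 0.146 by limma. The log2 fold change was -0.33 for GSTF5, with a 95% interval from -0.998 to 0.335, and -0.28 for GSTF4, with an interval from -0.57 to 0.02.

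GSTF2 (AT4G02520), which is known to bind small ligands such as camalexin and flavonols, was at 1346.5, 1270.0 and 777 TPM in control and at 1496, 1598 and 1532 TPM in DMMTA. The groups did not overlap, but the distance from control replicate 1 to the lowest DMMTA library was small beside the spread of the control libraries. GSTF2 did not pass the test (log2 fold change 0.49 ± 0.19 SE, 95% interval 0.04 to 0.93, adjusted p = 0.0973 by limma). Without control replicate 3 its log2 fold change was 0.24. Its close relative GSTF3 (AT2G02930) was far lower, at 0.887, 1.05 and 0.618 TPM in control and 3.07, 4.17 and 4.44 TPM in DMMTA. GSTF3 rose 4.57-fold (log2 fold change 1.70 ± 0.19 SE, adjusted p = 3.51e-04 by limma). Its libraries did not overlap either, and control replicate 3 was the lowest in both genes.

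GSTF9 (AT2G30860) and GSTF10 (AT2G30870) form the other tandem pair, on chromosome 2, and held the highest and second-highest mean level of the class in control. GSTF9 was at 1537, 1726 and 1392 TPM in control and 1411, 1575 and 1538 TPM in DMMTA. These ranges overlap, and the gene did not pass the test (log2 fold change -0.04, 95% interval -0.30 to 0.22, adjusted p = 0.831 by limma). GSTF10 was at 1189.5, 1126 and 1151 TPM in control and at 1504, 1538 and 1591 TPM in DMMTA, with no overlap. Its rise was small, 1.34-fold (log2 fold change 0.42 ± 0.09 SE, adjusted p = 0.00954 by limma). It passed the test with a coefficient of variation of 2.79% in control and 2.83% in DMMTA, the lowest of the class in both groups, and the call was lost without DMMTA replicate 3 (adjusted p = 0.0510) and without both replicate 3 libraries (adjusted p = 0.0630).

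The genes that fell were among the less abundant. GSTF14 (AT1G49860), with a predicted protein of 254 residues, had the largest change of the class. It was at 213, 85.3 and 103 TPM in control and at 5.91, 6.52 and 8.13 TPM in DMMTA. Control replicate 1 was more than 2 times as high as the other control libraries, yet the lowest control library was above the highest DMMTA library by more than 10 times. GSTF14 fell 19.5-fold by mean TPM (log2 fold change -4.09 ± 0.30 SE, adjusted p = 4.06e-05 by limma), and without control replicate 1 the log2 fold change was -3.69. GSTF11 (AT3G03190), which is co-expressed with genes of aliphatic glucosinolate synthesis and is a candidate for a glutathione conjugation step there, was at 17.0, 22.2 and 15.7 TPM in control. It was at 5.36, 7.44 and 5.50 TPM in DMMTA. The groups did not overlap and it fell 3.00-fold (log2 fold change -1.51 ± 0.17 SE, adjusted p = 3.65e-04 by limma). GSTF13 (AT3G62760), outside the member list, also fell, from 5.19, 5.86 and 7.63 TPM to 2.92, 2.14 and 1.28 TPM (adjusted p = 0.00368 by limma).

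Root hair markers and some markers of root inner tissues fell in the same libraries as GSTF14. Over all tested loci 17.4% rose and 10.5% fell. All 8 root hair markers fell, and their summed level went from 159 to 189 TPM in the control libraries to 38.5 to 53.5 TPM in the DMMTA libraries. RHD6 lost its call without any 1 of 4 libraries (control replicates 1, 2 and 3 and DMMTA replicate 3, adjusted p = 0.0586 to 0.105), and RSL4 without both replicate 3 libraries (adjusted p = 0.0569). PRP3, a cell wall protein gene of root hairs, fell 7.18-fold and RHS13 4.47-fold. Of the 7 markers of root inner tissues 3 fell, none rose and 4 did not pass the test. CASP1 of the Casparian strip fell 3.85-fold and the phosphate exporter gene PHO1 3.08-fold. The 7 summed to 126 to 139.6 TPM in control and 44.4 to 58.7 TPM in DMMTA. CASP1 and PHO1 made up most of this sum and of its fall. Their means were 47.4 and 65.5 TPM in control and 12.3 and 21.3 TPM in DMMTA. The call of CASP1 was lost with no filter on low values (adjusted p = 0.0672) and without both replicate 3 libraries (adjusted p = 0.0572). Of 7 shoot markers 1 rose, the antenna gene LHCB2.1 1.41-fold, and 2 fell, RBCS1B of the small Rubisco subunit 1.51-fold and Rubisco activase RCA 1.31-fold. The calls of LHCB2.1, RBCS1B and RCA were each lost without at least 1 library. The part of these shifts in the fall of GSTF14 was not tested. In whole seedlings, fewer cells of a type and less RNA per cell cannot be told apart.

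**Figure D2:**
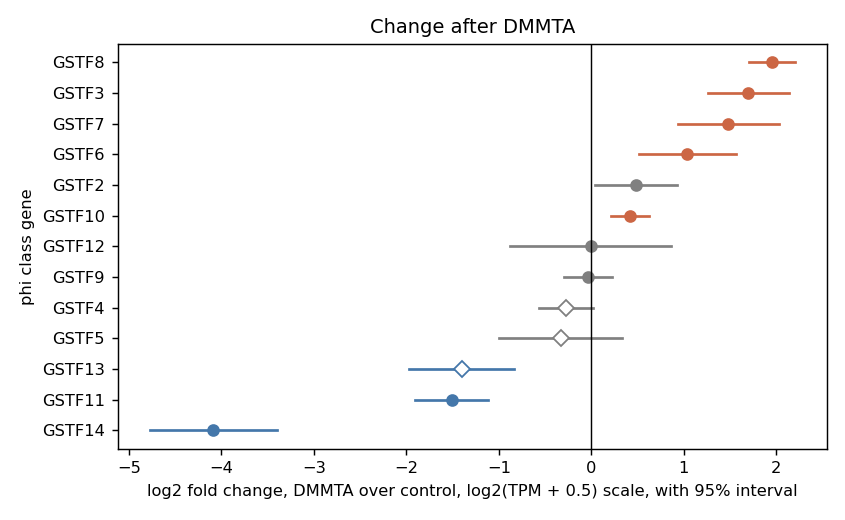
Log2 fold change of DMMTA over control for the 10 members (filled circles) and the 3 other phi class loci (open diamonds), with 95% intervals. Orange marks genes that rose, blue genes that fell and grey genes that did not pass the test, with GSTF8 at the top at 1.95 and GSTF14 at the bottom at -4.09.

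GSTF12 (AT5G17220), known as TRANSPARENT TESTA 19, is the carrier that anthocyanins and proanthocyanidin precursors need to reach the vacuole. It was at 4.96, 18.0 and 7.74 TPM in control and at 10.3, 9.29 and 7.27 TPM in DMMTA. All DMMTA libraries lay inside the range of the control libraries, and control replicate 2 was the highest of the 6. It did not pass the test (log2 fold change -0.006 ± 0.38 SE, 95% interval -0.88 to 0.87, adjusted p = 0.993 by limma), and the interval is wide in both directions. Without control replicate 2 the log2 fold change was 0.48 and without control replicate 1 it was -0.40, neither past the test.

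The genes of anthocyanin and proanthocyanidin synthesis gave 2 that rose and 1 that fell of 15 tested out of 19 written. Among all tested loci 17.4% rose and 10.5% fell. The median log2 fold change of the list was 0.11. Without control replicate 2 the number that rose was 4, with 3AT2 (adjusted p = 0.0372) and TT8 (adjusted p = 0.0363) added. DFR, the reductase that commits flavonoids to anthocyanins, was at 2.72, 11.6 and 4.98 TPM in control, again highest in replicate 2, and at 7.67, 4.37 and 5.10 TPM in DMMTA (adjusted p = 0.978 by limma). LDOX, the next enzyme, was at 1.56, 5.14 and 2.95 TPM in control and 4.83, 2.97 and 2.55 TPM in DMMTA (adjusted p = 0.761 by limma). DFR and LDOX were picked after their values were seen, for their place next to GSTF12 in the pathway. The genes that rose were UGT78D2, a flavonoid glucosyltransferase that also acts on flavonols, 3.08-fold, and BGLU10, 1.91-fold. EGL3, a bHLH regulator of the pathway, fell 1.88-fold, a call lost in 4 of the alternatives that leave out libraries.

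The summed level of the 10 members was 7136, 6638 and 4984 TPM in control and 10152, 10609.7 and 10177 TPM in DMMTA, so every DMMTA library was above every control library. The mean was 6253 ± 1127 TPM in control and 10313 ± 257 TPM in DMMTA (SD, n = 3), a ratio of 1.65. No test was made of this sum. GSTF6, GSTF7 and GSTF8 together made up 84.8% of the net difference of the means, GSTF7 alone 31.6%. The mean share of GSTF8 in the class went from 6.04% to 14.0% and that of GSTF6 from 17.4% to 21.3%. The mean share of GSTF9 went from 25.2% to 14.6% although its level overlapped between the groups. By mean level the order in control was GSTF9, GSTF10, GSTF2, GSTF6, GSTF7, GSTF8, GSTF14, GSTF11, GSTF12 and GSTF3. In control the ranges of GSTF10 and GSTF2 overlapped, as did those of GSTF2 and GSTF6, of GSTF6 and GSTF7 and of GSTF11 and GSTF12, and the other neighbours in that order were apart. In DMMTA the order was GSTF6, GSTF7, GSTF10, GSTF2, GSTF9, GSTF8, GSTF12, GSTF14, GSTF11 and GSTF3. There GSTF6 and GSTF7 overlapped in range, so did GSTF10, GSTF2, GSTF9 and GSTF8, and so did GSTF12 with GSTF14 and GSTF14 with GSTF11. Among all loci GSTF6 stood at ranks 63, 80 and 213 by TPM in the control libraries and at ranks 29, 23 and 37 in the DMMTA libraries.

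**Figure D3:**
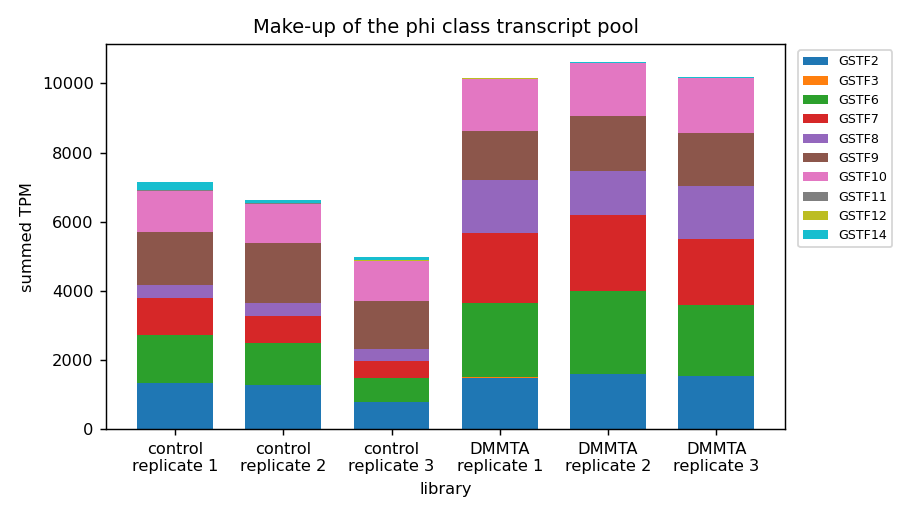
Summed TPM of the phi class in each library, stacked by gene. The 3 DMMTA bars stand between 10152 and 10609.7 TPM, above the control bars, of which replicate 3 is the lowest at 4984 TPM.

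The spread among control libraries was uneven across the class. Control replicate 3 was at 0.594, 0.539 and 0.538 times the mean of the other control libraries for GSTF2, GSTF6 and GSTF7. The same ratio was 0.637 for GSTF3, 0.675 for GSTF12, 0.694 for GSTF14 and 0.801 for GSTF11. In GSTF12 and GSTF14 another control library was lower than replicate 3. The ratio was 0.876 for GSTF8, 0.853 for GSTF9 and 0.995 for GSTF10. With 0.5 TPM added to both levels, its median over all tested loci was 0.927. The coefficient of variation of GSTF2 was 27.3% in control and 3.36% in DMMTA, that of GSTF6 32.2% and 7.90% and that of GSTF7 36.2% and 6.78%. Over the 11159 tested loci with a mean of at least 10 TPM its median was 11.1% in control and 7.11% in DMMTA. Without control replicate 3 both GSTF6 (log2 fold change 0.74, adjusted p = 0.00402 by limma) and GSTF7 (log2 fold change 1.19, adjusted p = 0.00179 by limma) still passed the test.

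Some members form pairs of close relatives, and the ratio of partners within a library asks whether they changed alike. Over their coding sequences GSTF6 and GSTF7 were identical at 94.7% of aligned bases, GSTF2 and GSTF3 at 94.5%, GSTF9 and GSTF10 at 77.6% and GSTF11 and GSTF12 at 75.3%. The first 2 of these pairs are also related to each other. GSTF2 and GSTF3 were identical to GSTF6 and GSTF7 at 77.8% to 78.6% of aligned bases, slightly above GSTF9 with GSTF10. The longest stretch without a difference was 116 bases between GSTF6 and GSTF7, 74 bases between GSTF2 and GSTF3 and 26 bases between GSTF9 and GSTF10. Of all windows of 50 bases, 17.3% of those in GSTF6 and 17.2% of those in GSTF7 also occur in the partner, and 5.90% in GSTF2 and GSTF3. The other 6 members share no such window with another locus. The sources used here give neither the read length nor the treatment of reads that match several loci, so the division of reads within the first 2 pairs is uncertain.

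GSTF6 was 1.33, 1.601 and 1.45 times as high as GSTF7 in the control libraries and 1.07, 1.09 and 1.06 times in the DMMTA libraries. The mean log2 ratio was 0.54 ± 0.13 in control and 0.10 ± 0.02 in DMMTA (SD, n = 3), a difference of -0.44. GSTF9 was 1.29, 1.53 and 1.21 times as high as GSTF10 in control and 0.938, 1.024 and 0.967 times in DMMTA, a difference of -0.46 in the mean log2 ratio. GSTF2 was 1518, 1206 and 1257 times as high as GSTF3 in control and 487, 383 and 345 times in DMMTA. With 0.5 TPM added to both the mean log2 ratio was 9.68 ± 0.24 in control and 8.47 ± 0.22 in DMMTA (SD, n = 3), a difference of -1.21. The size of this difference depends on what is added to the low GSTF3, and was -1.72 with nothing added and -0.56 with 2 TPM. In all 3 pairs the groups did not overlap. The exact two-sided permutation test gave p = 0.1 for each pair (0.1 after adjustment over the 3 pairs), which is the smallest that 3 libraries against 3 can give and does not reach 0.05. Counted as 1 feature, GSTF6 and GSTF7 rose (log2 fold change 1.24 ± 0.23 SE, adjusted p = 0.00512 by limma). Summed in the same way, GSTF2 with GSTF3 (log2 fold change 0.49, adjusted p = 0.0957 by limma) and GSTF9 with GSTF10 (log2 fold change 0.17, adjusted p = 0.243 by limma) did not pass the test.

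**Figure D4:**
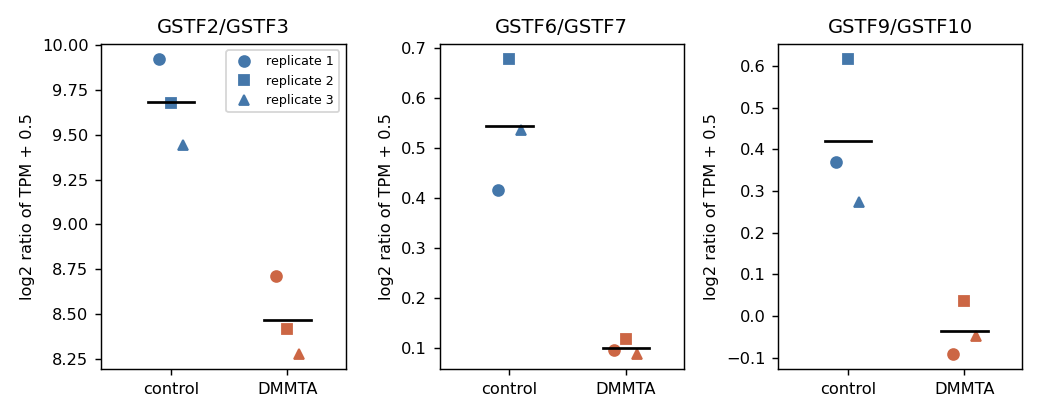
Log2 ratio of the partners of each pair in every library, from TPM + 0.5, with the symbol giving the replicate number and the line the group mean. Each axis has its own range, and in all 3 panels the DMMTA libraries lie below the control libraries.

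Of the tau class, the other large plant class, 17 of 27 tested members rose and 5 fell. The shares of all tested loci were 17.4% and 10.5%. The median log2 fold change was 1.28 in the tau class and 0.45 in the phi class, where 5 of 10 rose and 2 fell. The difference between the classes was not tested. GSTU25 and GSTU24 had its largest rises on the log2(TPM + 0.5) scale, 19.0-fold and 17.1-fold by mean TPM, where GSTU12, lower in level, rose 32.0-fold. GSTU12 was at 0.426, 0.400 and 0.769 TPM in control, so its fold rests on a very low level. GSTU12 and GSTU2, both among those that rose, met the expression filter only through their DMMTA libraries. GSTU14 fell 5.24-fold. In summed level the phi class stood above the tau class in every library, 4984 to 7136 TPM against 1006 to 1112 TPM in control and 10152 to 10609.7 TPM against 2497 to 2579 TPM in DMMTA.

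Genes that supply glutathione and handle its conjugates rose or did not pass the test. Of 13 tested out of 14 written, 9 rose and none fell, beside 17.4% and 10.5% of all tested loci. The median log2 fold change of the list was 0.66. ABCC3, a vacuolar transporter of glutathione conjugates, rose 2.57-fold, from 39.6, 43.9 and 20.9 TPM to 101, 90.4 and 77.5 TPM. GR1, the cytosolic glutathione reductase, rose 2.41-fold. GSTF6 and GSTF2 have ties to camalexin, and of the 6 genes of camalexin synthesis 4 rose and none fell. The number that rose was 3 with no filter on low values and without DMMTA replicate 2, where GGP1, described below, lost its call. It was 5 with the replicate number as a block and without both replicate 3 libraries. Without control replicate 3 CYP79B3, an enzyme of indole metabolism at the start of the route, fell (log2 fold change -0.39, adjusted p = 0.0189 by limma). CYP71A12, a cytochrome P450 of that route, rose 36.8-fold, from 2.69 to 12.2 TPM in control to 164 to 293 TPM in DMMTA. Control replicate 1 was its highest control library, and without it the rise was 66.2-fold. CYP71A13, another cytochrome P450 of the list, did not pass the test (1.74-fold, adjusted p = 0.191 by limma), and its groups overlapped. It passed with the replicate number as a block (adjusted p = 0.00953 by limma) and without both replicate 3 libraries (adjusted p = 0.0347 by limma). PAD3, the last enzyme, rose 7.87-fold. Control replicate 3 was the lowest library of PAD3 too, at 15.7 TPM beside 34.3 and 38.1 TPM.

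Genes of aliphatic glucosinolate synthesis, the route in which GSTF11 is placed, fell in 10 of 16 cases and rose in 3. Among all tested loci 10.5% fell and 17.4% rose. The median log2 fold change of the list was -0.78. The number that rose was 0 without DMMTA replicate 2 and with no filter on low values, and 1 without DMMTA replicate 3, and with no filter the number that fell was 6. MAM3, which elongates methionine side chains, fell 4.24-fold, from 154 to 231 TPM to 34.9 to 62.6 TPM, and BCAT4, an aminotransferase at the entry of the route, fell 2.61-fold. GGP1, which trims glutathione conjugates in this route and in camalexin synthesis and is counted in 3 of the lists, rose 1.47-fold, a call lost with no filter on low values (adjusted p = 0.0669) and without DMMTA replicate 2 (adjusted p = 0.0558).

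Of the TGA factors and NPR1, the coactivator of salicylic acid responses, 2 of 10 rose and 1 fell. These counts are near the shares of all tested loci, of which 17.4% rose and 10.5% fell. TGA3 rose 1.65-fold, from 57.4 to 81.7 TPM to 118 to 119 TPM. NPR1 rose 1.38-fold and TGA1 fell 1.42-fold, and the calls of NPR1 and TGA1 were each lost without at least 1 library. The other 7 genes of this list did not pass the test, with a list median of 0.11.

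**Figure D5:**
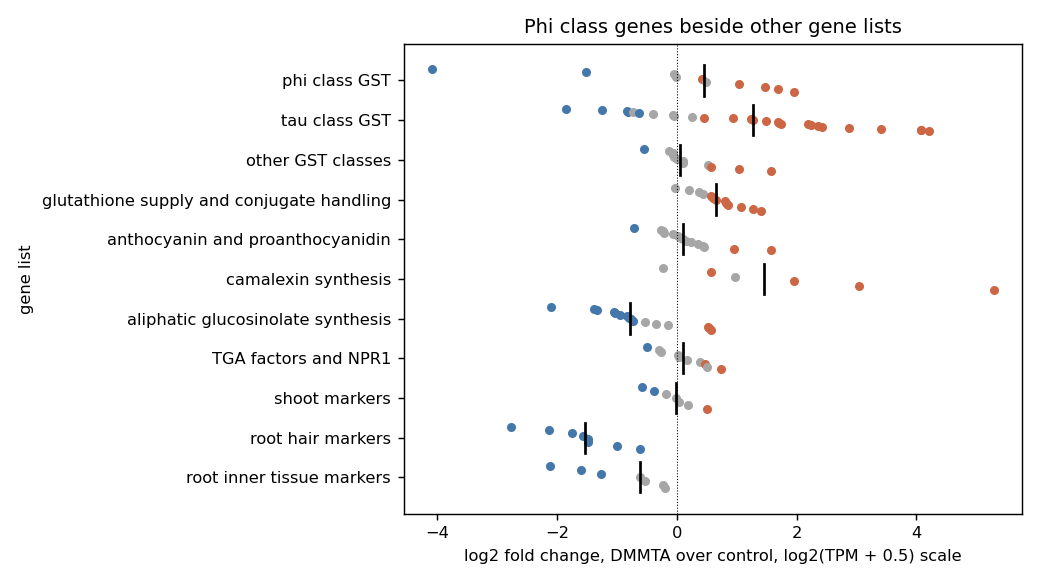
Log2 fold change of each tested gene by list, with orange for genes that rose, blue for genes that fell, grey for genes that did not pass the test and a black line at the list median. The phi class spans from -4.09 to 1.95, and its median of 0.45 lies left of the tau class median of 1.28.

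The loci outside the class whose log2 levels followed a member most closely over the 6 libraries were looked up for 3 members, by Pearson correlation among loci whose log2 level averaged at least 1. The 6 libraries form 2 treatment groups and share their scaling, so r is given as a description only. The loci were picked by r in these same libraries, so a highest or lowest library shared with a member follows largely from that choice. For GSTF8 they were HSP70 (AT3G12580), a cytosolic chaperone (r = 0.9997), AT4G24160, an alpha/beta-hydrolase (r = 0.9994), and AT2G29500, a small heat shock protein of the HSP20 family (r = 0.9991). HSP70 went from 13.9 to 18.2 TPM to 231 to 344 TPM, and in DMMTA its lowest library was replicate 2, as for GSTF8. For GSTF6 they were WRKY48 (r = 0.9984), a stress-induced transcription factor, AT3G10300, a calcium-binding EF-hand protein (r = 0.9978), and AT5G04020, a calmodulin-binding protein (r = 0.9972). WRKY48 was at 5.01, 4.603 and 2.34 TPM in control and 8.07, 9.46 and 7.49 TPM in DMMTA, lowest in control replicate 3 as GSTF6 was. For GSTF14 they were AT4G14780, a protein kinase (r = 0.9987), ASL9 (r = 0.9965), a LOB domain gene, and AT3G53650, a histone (r = 0.9964). AT4G14780 went from 5.29, 3.62 and 4.09 TPM to 0.7502, 0.891 and 0.993 TPM, with its highest value in control replicate 1 as in GSTF14.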

How the data were processed

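Per the labels, libraries were strand-specific and made from poly(A)-selected RNA. Each library has 1 deposited table with a row per coding sequence. Its RPKM and FPKM are the authors' values, as named per the file headers, which define neither. DESeq2 is listed, without a role, per the submitters' processing notes. The sources used here name no aligner, counting tool or build. Of 48350 rows, 1883 with displaced or emptied cells were left out. RPKM was summed per locus and rescaled to 1000000 per library, here called TPM, and the deposited FPKM served as an alternative. The design named a count test should the files hold counts. They hold none, so limma 3.58.1 (R 4.3.3, intensity trend, no covariates) was fitted to log2(TPM + 0.5) and tested on simulated data. Depth is the value at which low RPKM times coding length came out whole (88.6% to 93.3% fell within 0.2 of one).

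Members and lists were chosen with earlier results of these data known. Named are all members and, in each list, the 2 top log2 fold changes that passed the test in the commoner direction and the 1 top in the opposite one, plus the closest loci by correlation for 3 members. Other genes are named where a count or a ranking turns on them or, as GSTF4, GSTF5, DFR and LDOX, for their place beside a member. They were chosen with their values seen. Lists cover the tau class, other classes, phi class loci outside the members, glutathione handling, anthocyanins, camalexin, aliphatic glucosinolates, TGA factors and markers of shoot, root hair and root inner tissue. Alternatives changed the filter, pseudocount, unit, scaling, block, libraries, threshold and pairs. The upstream window of 1 member is not reported here. Figures used matplotlib 3.10.9.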

Additional observations from a re-analysis of the deposited data

How the results depend on the processing

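Of the 10 members 5 rose and 2 fell. Leaving out each library gave 4 to 5 that rose and 2 to 2 that fell. With each pair summed to 1 feature 2 features rose and 2 fell, since 7 features remain and GSTF3 and GSTF10 are no longer counted alone. GSTF6 lost its call with no filter on low values (adjusted p = 0.0789) and at an adjusted p under 0.01, and GSTF10 without DMMTA replicate 3 (0.0510) or with both replicate 3 libraries dropped (0.0630). The other 5 called members kept their call in each alternative that could be fitted, and GSTF3 is not fitted at a filter of at least 5 TPM. Over all loci 3272 rose and 1978 fell. Dropping both replicate 3 libraries gave 2022 and 1000, and an adjusted p under 0.01 gave 1988 and 923, each stricter by construction. Leaving out each library gave 2241 to 3156 that rose and 1150 to 1733 that fell, the lowest of both without DMMTA replicate 3. Median-of-ratios scaling moved the median log2 fold change of all loci from 0.04 to -0.004, and no member changed its call. The difference in log2 ratio kept its sign in each alternative, from -1.72 to -0.56 for GSTF2 over GSTF3 (-1.33 to -1.09 when leaving out each library; the value with no pseudocount, -1.72, was added after seeing the data), -0.51 to -0.38 for GSTF6 over GSTF7 and -0.53 to -0.36 for GSTF9 over GSTF10. The libraries share only a replicate number. Correlations of same-numbered deviations were 0.243, 0.334 and 0.083, each library correlating best with its own number, a hint from the data and not from the design. With the replicate number as a block 5 members rose and 2 fell, and over all loci 3539 rose and 2242 fell. Precision of GSTF3 is limited by about 36.1 reads in its shallowest library.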

Other observations

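Outside the phi and tau classes, 3 of 12 tested genes of other glutathione S-transferase classes rose and 1 fell. The shares of all tested loci were 17.4% and 10.5%. The median log2 fold change of these 12 genes was 0.06. GSTL1, of the lambda class, rose 2.93-fold, from 39.8, 23.0 and 23.0 TPM in control to 82.3, 76.6 and 92.5 TPM in DMMTA. GSTZ1, of the zeta class, which works in tyrosine breakdown, rose 2.04-fold, from 127 to 167 TPM to 293 to 300.5 TPM. DHAR1, a dehydroascorbate reductase, fell 1.47-fold, from 296 to 425 TPM to 217 to 266 TPM, a call lost with no filter on low values, without control replicate 2, without DMMTA replicate 1, without DMMTA replicate 3 and with both replicate 3 libraries dropped (adjusted p = 0.0506 to 0.109). The summed level of these 12 genes was 1021 to 1166 TPM in control and 1174 to 1239 TPM in DMMTA.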
